A study of Mus musculus with 4 samples.

Results

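Polycomb repressive complex 2 (PRC2) is the enzyme complex that places methyl groups on lysine 27 of histone H3 (H3K27me3), a mark of repressed genes. Its catalytic subunit is EZH2 or its paralog EZH1, which works only together with EED, which binds H3K27me3, and SUZ12, the scaffold of the complex; RBBP4 is a histone-binding protein that PRC2 shares with deacetylase and other chromatin complexes. Accessory subunits divide PRC2 into a form with 1 of the Polycomb-like (PCL) proteins PHF1, MTF2 and PHF19, called PRC2.1, and a form with JARID2 and AEBP2, called PRC2.2. Mouse embryonic stem cells (ESCs) can renew themselves without PRC2 but do not differentiate properly, and many developmental regulators carry H3K27me3 in these cells.

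The members were the 10 genes whose symbol in the count table was Ezh1, Ezh2, Eed, Suz12, Rbbp4, Jarid2, Aebp2, Mtf2, Phf19 or Phf1, of 26301 gene identifiers. All 10 were present and all 10 passed the filter on low counts, as did 15444 genes in all. RNA was sequenced from 2 WT libraries of the N6 ESC line and 2 Rest-/- libraries of the N8 ESC line, REST being a repressor of neuronal genes. The labels call the 2 libraries of a genotype biological replicates. The medium held LIF and serum, and both lines came off a fibroblast feeder layer by 3 passages on gelatin before RNA was taken. Each genotype was 1 line, so genotype and line cannot be told apart.

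The libraries held between 22293966 and 30953863 counts on genes. Rest itself, on chromosome 5, had 255 and 233 CPM (counts relative to library size, scaled with TMM factors) in WT and 164 and 176 CPM in Rest-/- ESCs. The fitted log2 fold change of Rest was -0.52 (standard error 0.13, adjusted p = 0.526 in edgeR's quasi-likelihood test), and counts summed over the whole gene do not show which exons were read. The 10 pluripotency markers were all detected and summed to 4916 and 4753 CPM in WT and to 4213 and 4311 CPM in Rest-/- ESCs, with log2 fold changes from -1.36 for Zfp42 and -0.46 for Nanog to 0.079 for Pou5f1 and 0.19 for Utf1. The 9 feeder fibroblast markers summed to 43.1 and 24.6 CPM in WT, and to 141 and 26.3 CPM in Rest-/- replicates 1 and 2, with Lum at 0 in every library and Dcn at 1 to 5 counts. The 10 primitive endoderm markers summed to 131 and 229 CPM in WT and to 296 and 362 CPM in Rest-/- ESCs. In edgeR's quasi-likelihood test 0 genes of these lists and 0 of 5 tested neural progenitor markers passed, with 3, 1, 4 and 1 at an unadjusted p under 0.05, where 6.71% of all tested genes were. The exact test at tag-wise dispersion called Zfp42 lower and Cubn, Gata6 and Pdgfra higher, and at common dispersion these and 5 of 7 tested feeder markers, all higher. The part of these cells in the values below was not tested.

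With genotype alone in the model, no PRC2 member passed the test. Calls with the replicate number also in the model differed and are given under how the results depend on the processing. In edgeR's quasi-likelihood test, 0 of 10 members had an adjusted p under 0.05, against 0.0583% of the 15444 genes tested, and 1 member, Phf19, had an unadjusted p under 0.05, against 6.71%. The exact test of edgeR with tag-wise or common dispersion and DESeq2 also called 0 of 10, against 1.77%, 2.22% and 1.54% of all tested genes. The log2 fold changes of the members, Rest-/- over WT, ran from -0.68 for Phf19 to 0.11 for Rbbp4, with a median of -0.092, against -0.0047 over all tested genes. Of them, 7 were below 0, but both Rest-/- libraries lay below both WT libraries for only 2 members, Ezh1 and Phf19, and above them for 1, Rbbp4, where 15.4% and 16.5% of all tested genes did so. The median size of the log2 fold change without its sign was 0.11 among the members and 0.18 among all tested genes. A p that misses the threshold does not show that the genotypes were alike. The intervals below give the differences that the model with genotype alone still allows, and they count any shift between replicate numbers as spread.

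**Figure D1:**
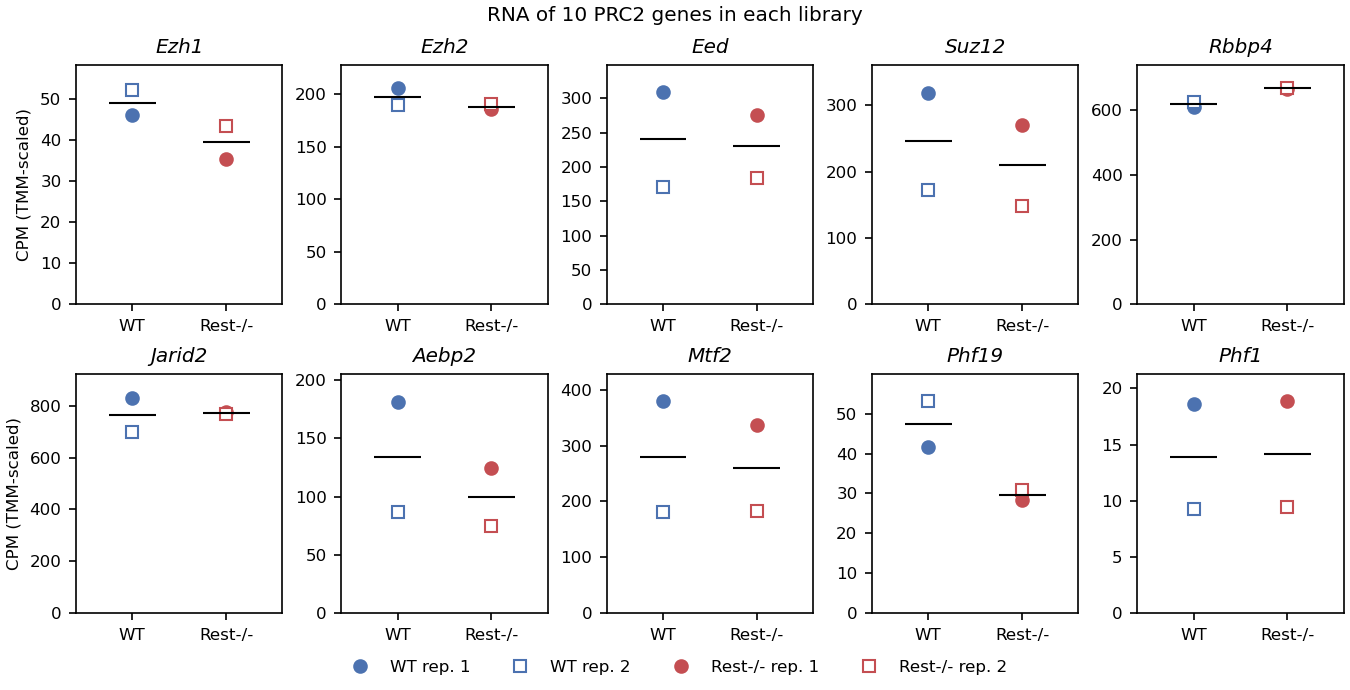
Levels of the 10 PRC2 genes in CPM (linear axes from 0, one panel per gene), with 1 point per library, circles for replicate 1 and open squares for replicate 2, and a line at the mean of each genotype. Phf19 and Ezh1 have both Rest-/- libraries below both WT libraries, Rbbp4 has both above, and Eed, Suz12, Aebp2, Mtf2 and Phf1 are spread within each genotype.

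The catalytic subunits were both expressed. Ezh2 (chromosome 6 of mm9, 47480273 to 47545340) had 206 and 189.6 CPM in WT and 185.7 and 190.5 CPM in Rest-/- ESCs. The 4 values spanned a narrow range and the genotypes overlapped. For Ezh2 the log2 fold change was -0.072 (standard error 0.12, 95% interval -0.40 to 0.26). Ezh1 (chromosome 11, 101052429 to 101087777), the paralog best known from cells that no longer divide, had 46.1 and 52.1 CPM in WT and 35.5 and 43.4 CPM in Rest-/- ESCs. The genotypes did not overlap, but the highest Rest-/- value lay close to the lowest WT value. The log2 fold change of Ezh1 was -0.32 (standard error 0.18, 95% interval -0.80 to 0.16, adjusted p = 0.980 in edgeR's quasi-likelihood test).

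The obligatory partners Eed and Suz12 differed more between libraries of the same genotype than between genotypes. Eed (chromosome 7, 97103166 to 97129493) had 309 and 171 CPM in WT and 276 and 184 CPM in Rest-/- ESCs, replicate 1 first. Suz12 (chromosome 11, 79806608 to 79847625) had 319 and 172 CPM in WT and 270.3 and 149 CPM in Rest-/- ESCs. For both genes the replicate 1 libraries were high and the replicate 2 libraries low in each genotype. The log2 fold change was -0.065 for Eed (95% interval -1.02 to 0.89) and -0.23 for Suz12 (95% interval -1.35 to 0.89). Rbbp4 (chromosome 4, 128984344 to 129012614) was the steadiest member, with 611 and 624 CPM in WT and 665 and 668 CPM in Rest-/- ESCs. The genotypes did not overlap, and its log2 fold change was 0.11 (standard error 0.11, 95% interval -0.19 to 0.41). Its reads could be shared with 1 other locus that matched at least 80% of its coding sequence at 90.9% identity.

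Jarid2, a PRC2.2 subunit gene, had the smallest genotype difference of the members. JARID2 helps recruit PRC2 to chromatin. Jarid2 (chromosome 13, 44824843 to 45017012) had 831 and 698 CPM in WT and 777 and 767 CPM in Rest-/- ESCs, so that both Rest-/- libraries lay between the WT libraries. The difference between genotypes was 0.014 on the log2 scale (standard error 0.14, 95% interval -0.36 to 0.39). Aebp2 (chromosome 6, 140570970 to 140626993), which encodes a zinc finger protein, had 181 and 87.2 CPM in WT and 125 and 74.9 CPM in Rest-/- ESCs. Replicate 1 was again the higher library of each genotype and the genotypes overlapped. The log2 fold change of Aebp2 was -0.43 (standard error 0.44, 95% interval -1.60 to 0.74).

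Among the 3 PCL genes, Phf19 had the largest difference and did not pass with genotype alone in the model. Phf19 (chromosome 2, 34749277 to 34769546) encodes a PCL protein that binds histone H3 methylated at lysine 36, and had 1290 and 1425 counts in WT and 731 and 685 counts in Rest-/- ESCs. On the CPM scale these were 41.7 and 53.2 in WT and 28.3 and 30.9 in Rest-/- ESCs, a mean of 47.4 ± 8.16 CPM (SD, n = 2) against 29.6 ± 1.86 CPM (SD, n = 2). Both Rest-/- libraries lay below both WT libraries, and the Rest-/- mean was 62.4% of the WT mean. The log2 fold change of Phf19 was -0.68 (standard error 0.19, 95% interval -1.19 to -0.17). The p was 0.0199 before and 0.619 after adjustment over all tested genes in edgeR's quasi-likelihood test, so Phf19 did not pass in this model. It was the only member whose interval left out 0.

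Mtf2, which encodes the main PCL protein of ESCs, and Phf1 did not separate by genotype. Mtf2 (chromosome 5, 108494693 to 108538023) had 379 and 181 CPM in WT and 336 and 182 CPM in Rest-/- ESCs. Between genotypes Mtf2 had a log2 fold change of -0.11 (95% interval -1.36 to 1.13). Phf1 (chromosome 17, 27070072 to 27074835), also a PCL gene, had 18.6 and 9.26 CPM in WT and 18.8 and 9.48 CPM in Rest-/- ESCs. Each library of Phf1 almost matched the library of the same number in the other genotype, and its log2 fold change was 0.026 (95% interval -1.31 to 1.37). That Phf19 differed from Mtf2 or Phf1 in its response was not tested.

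The same 5 members, Eed, Suz12, Aebp2, Mtf2 and Phf1, were at least 1.5 times higher in replicate 1 than in replicate 2 in both genotypes, where 9.86% of all tested genes were. The ratio of replicate 1 to replicate 2 was 2.09 in WT and 1.85 in Rest-/- ESCs for Mtf2, 2.07 and 1.66 for Aebp2, 1.95 and 1.94 for Phf1, 1.85 and 1.81 for Suz12, and, for Eed, 1.80 in WT and just past the limit in Rest-/- ESCs. Ezh1, Ezh2, Rbbp4, Jarid2 and Phf19 were not, 0 of 10 members were so much higher in replicate 2 in both genotypes, where 5.10% of all tested genes were, and for Ezh1 and Phf19 replicate 2 was the higher library in each genotype. The median gap between the libraries of 1 genotype, as a difference of log2(CPM + 0.5) without its sign, was 0.60 in WT and 0.44 in Rest-/- ESCs for the members, against 0.32 and 0.28 for all tested genes. For 7 of the 10 members the larger of these gaps exceeded the genotype difference. The exceptions were Ezh1, Rbbp4 and Phf19, the members whose genotypes did not overlap.

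**Figure D2:**
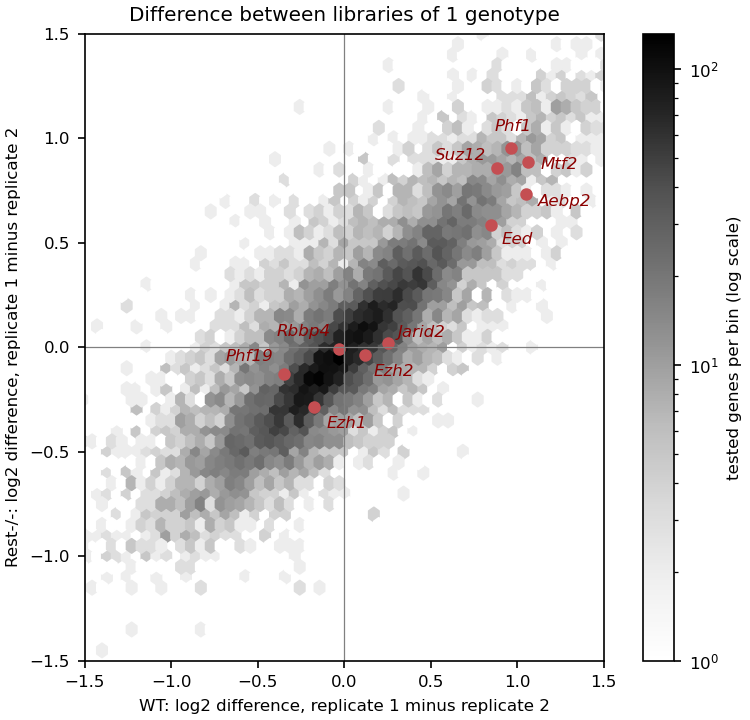
Difference of log2(CPM + 0.5) between replicate 1 and replicate 2, in WT (x axis) and in Rest-/- ESCs (y axis). Grey bins hold the 15444 tested genes (log scale of genes per bin) and red points are the 10 PRC2 genes, of which Eed, Suz12, Aebp2, Mtf2 and Phf1 lie far to the upper right and the other 5 near the centre.

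Within replicate numbers, as differences of log2(CPM + 0.5) between Rest-/- and WT libraries without a test, Phf19 was lower by both comparisons, at -0.55 for replicate 1 and -0.77 for replicate 2. Ezh1 was at -0.37 and -0.26, Suz12 at -0.24 and -0.21, and Aebp2 at -0.53 and -0.22. Rbbp4, at 0.12 and 0.099, and Phf1, at 0.021 and 0.032, were above 0 in both. The remaining 4 members, Ezh2, Eed, Jarid2 and Mtf2, were below 0 within replicate 1 and above 0 within replicate 2. The direction was therefore the same in both numbers for 6 of 10 members, where it was for 71.9% of all tested genes.

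**Figure D3:**
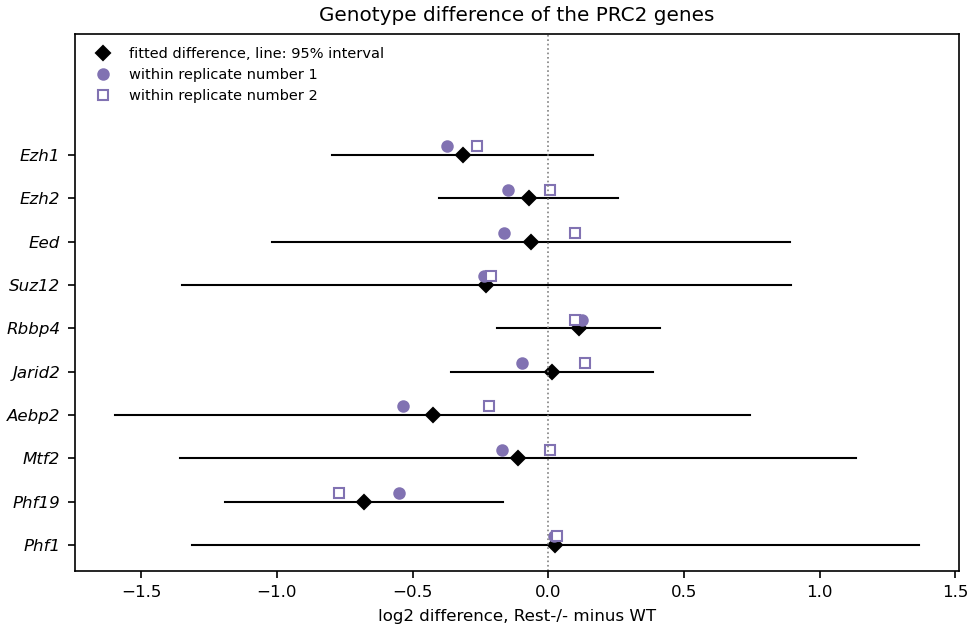
Genotype difference of each PRC2 gene on a log2 scale, Rest-/- minus WT. Diamonds and lines are the fitted log2 fold change with its 95% interval, and purple symbols are the differences of log2(CPM + 0.5) within replicate numbers 1 and 2; only the interval of Phf19, from -1.19 to -0.17, leaves out 0.

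Levels of different genes were compared as CPM per kilobase of exon, the union of the annotated exons being the length. On this scale the mean WT levels were, in order, Eed at 108, Jarid2 at 78.7, Rbbp4 at 70.6, Mtf2 at 53.2, Suz12 at 49.7, Ezh2 at 31.9, Aebp2 at 15.3, Phf19 at 9.42, Ezh1 at 6.60 and Phf1 at 5.73. Eed lay at the 96.5th percentile and Phf1 at the 47.8th of 14192 tested genes with a length. Of neighbours in this order, the only pairs compared, the WT libraries of Eed and Jarid2, Rbbp4 and Mtf2, Mtf2 and Suz12, Aebp2 and Phf19, and Ezh1 and Phf1 overlapped. The order within these pairs is thus not beyond the spread between libraries, but within each of the 4 libraries Eed lay above Jarid2. The order depended on the length: per kilobase of coding sequence Rbbp4 led with 446, ahead of Jarid2 at 207 and Eed at 182, and Aebp2 at 88.7 and Ezh2 at 88.4 overlapped in WT. Counts of the whole gene were divided by the coding length there, so genes with much untranslated sequence stand higher on that scale. For Rbbp4 the coding length was 1383 bases, against 8744 exonic bases. Phf19, Ezh1 and Phf1 were the 3 lowest with either length.

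**Figure D4:**
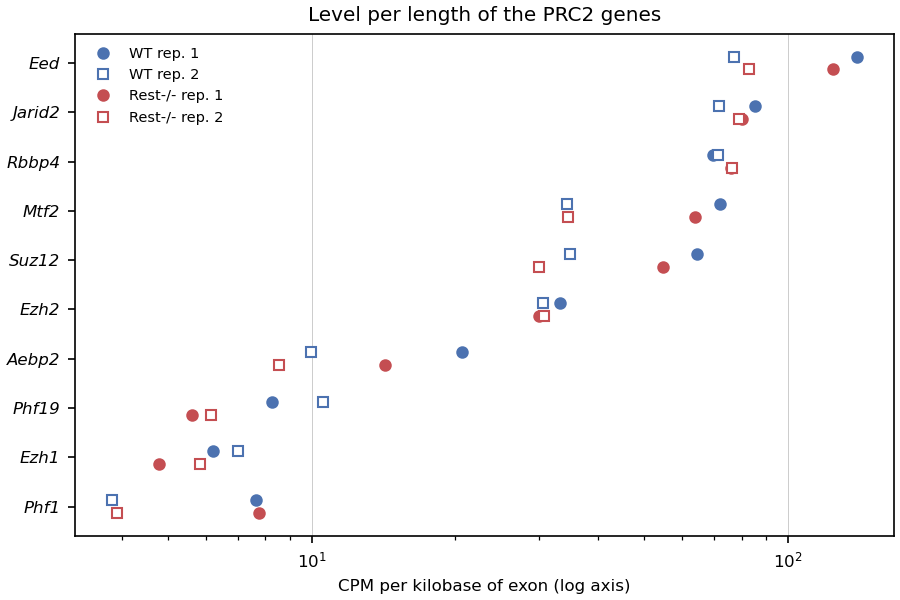
Level of each PRC2 gene in CPM per kilobase of exon (log axis) in the 4 libraries, ordered by the WT mean. Eed, Jarid2 and Rbbp4 are at the top, and Phf19, Ezh1 and Phf1 at the bottom of this order, which holds for exon length only.

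Per kilobase, Ezh1 made up 15.7% and 18.6% of the summed RNA of Ezh1 and Ezh2 in WT and 13.7% and 15.9% in Rest-/- ESCs. Ezh2 RNA thus prevailed in every library. The log2 ratio of Ezh1 to Ezh2 was -2.27 ± 0.21 (SD, n = 2) in WT and -2.52 ± 0.18 (SD, n = 2) in Rest-/- ESCs, a difference of -0.25, with a two-sided p of 0.667 by exact permutation over the libraries, where 0.333 is the smallest possible; with 1 library left out it ran from -0.40 to -0.10. The PCL genes held 45.3% and 37.4% of the summed level of PCL genes, Jarid2 and Aebp2 in WT, and 45.1% and 33.8% in Rest-/- ESCs. In that share the replicate 1 libraries were the higher ones in each genotype, and the genotypes overlapped. Mtf2 gave most of the PCL RNA, between 70.5% and 82.7% over the 4 libraries. Phf19 gave 9.41% and 21.7% of it in WT and 7.27% and 13.8% in Rest-/- ESCs, where the lower value of each genotype was that of replicate 1, the library with more Mtf2. The summed level of Ezh1 and Ezh2 over that of Suz12 was 0.612 and 1.08 in WT and 0.636 and 1.22 in Rest-/- ESCs, so it too followed the replicate number. For the PCL share and for this ratio the exact permutation test gave a two-sided p of 0.667, and these are shares of RNA, not of protein or of assembled complexes.

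Because REST binds the RE1 element, the sequence near each member was searched for it on both strands, at the 12 informative positions of the 15-base motif. No member had a match in its promoter window, 250 bases before to 50 bases after a RefSeq start (GRCm38.p6), where 0.0578% of 32851 windows had one, and none had a full match within 20 kb of an annotated start in mm9, where 4.43% of 14192 tested genes did. With 1 mismatch allowed, 3 of 10 members had a match within 20 kb, against 44.2% of the genes. The starts are of any annotated transcript, and from the 5′ end of the gene itself the matches lay 36.5 kb (Ezh1), 10.9 kb (Suz12) and 102 kb (Jarid2) away. The nearest match of each gene is shown; capitals mark the informative positions that match, and substitutions are counted from 1 at the 5′ end of the motif, with its base first.
Ezh1, chr11:101051277-101051291, minus strand, C6G, 4445 bases from a start: CAGcAgCtgGGACAG
Suz12, chr11:79817505-79817519, plus strand, C7T, 8212 bases from a start: CAGtACtcaGGACAG
Jarid2, chr13:44926632-44926646, plus strand, A2T, 9414 bases from a start: CtGtACCacGGACAG
These letters are a description of the sequence and not of binding.

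Ezh2, Eed and Suz12 are textbook targets of E2F factors, which drive genes of DNA replication. The E2F letters TTTCCCGC and TTTGGCGC, searched on both strands, stood in 3 of the 14 promoter windows of the 10 members, and either stood in 1.56% of all windows. The 3 windows were richer in CpG, at 0.952 to 1.09 observed over expected, than the median window at 0.384, and the share among windows of like CpG content was not computed. The 30 bases around each are given from GRCm38.p6 in the direction of the gene, with the match in capitals.
Ezh2, chr6:47595009-47595038, minus strand: gggttgctgcgTTTGGCGCtcggtccggtc
Suz12, chr11:79992876-79992905, plus strand: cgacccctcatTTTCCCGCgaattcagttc
Phf19, chr2:34914166-34914195, minus strand: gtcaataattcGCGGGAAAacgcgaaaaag
In Phf19 the match is on the strand opposite to the gene. Of the 3 genes, Phf19 alone had Rest-/- libraries that did not overlap the WT libraries, and Suz12 followed the replicate number. Among 16 replication genes regulated by E2F, 15 were tested, 0 passed in edgeR's quasi-likelihood test, 0 had an unadjusted p under 0.05, and both exact tests and DESeq2 called 0. Their median log2 fold change was -0.020, with 5 above and 10 below 0, and ran from -0.079 to -0.057 with 1 library left out. Both Rest-/- libraries lay below both WT libraries for 5 of the 15 and above them for 1, against 15.4% and 16.5% of all tested genes.

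The wider Polycomb list held 37 genes, of which 36 were tested. In edgeR's quasi-likelihood test 0 passed, 1 had an unadjusted p under 0.05, and the exact tests and DESeq2 also called 0. The median log2 fold change was -0.068, with 15 genes above and 21 below 0, and ran from -0.15 to -0.017 with 1 library left out. Both Rest-/- libraries lay below both WT libraries for 8 of the 36 and above them for 1, against 15.4% and 16.5% of all tested genes. By role, the median was -0.18 for 6 other PRC2 subunits and 0.032 for 4 genes of the PR-DUB complex, which removes ubiquitin from histone H2A. It was -0.039 for 20 PRC1 genes, which place that ubiquitin, and -0.040 for 4 writers of H3K36 methylation, a mark that opposes PRC2. For the 2 tested H3K27 demethylases the median was -0.24, with Kdm6a at -0.55 and Kdm6b at 0.062.

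**Figure D5:**
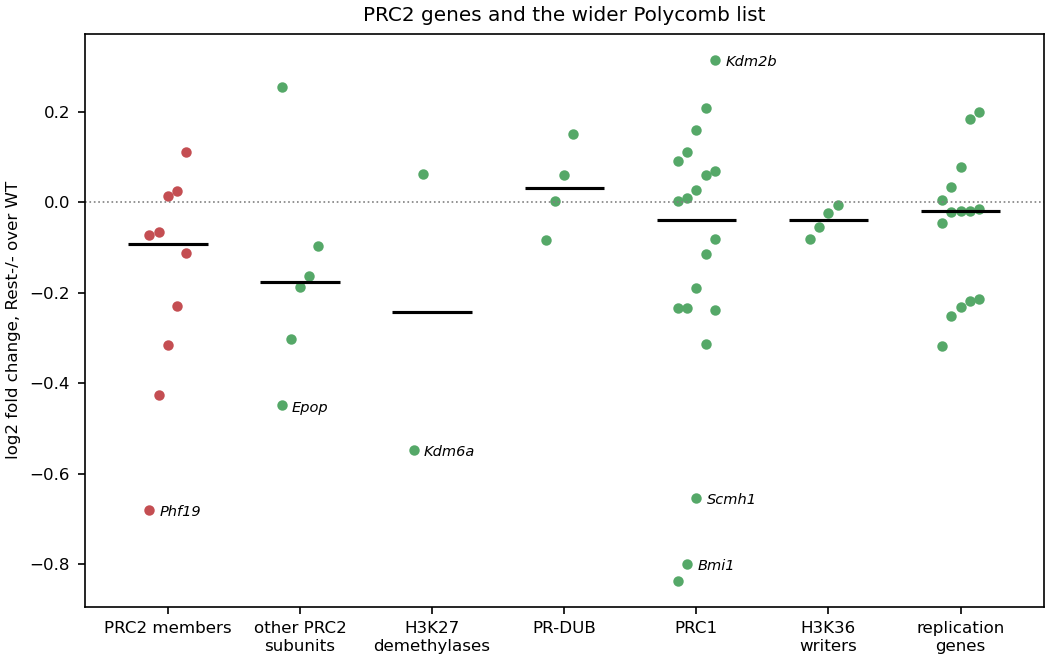
Log2 fold change, Rest-/- over WT, of each tested gene (points) by role, with a line at each median: the 10 PRC2 members in red, the 36 tested genes of the wider Polycomb list and 15 replication genes in green. The medians lie between -0.24 and 0.032. Bmi1, Phf19 and Scmh1 are among the 4 lowest points, and none of the genes shown passed the test with genotype alone in the model.

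Scmh1, a PRC1-associated gene, had the smallest p of the list. It had 66.8 and 54.1 CPM in WT and 40.3 and 36.6 CPM in Rest-/- ESCs. The genotypes did not overlap, and the log2 fold change of Scmh1 was -0.65 (standard error 0.18, adjusted p = 0.601 in edgeR's quasi-likelihood test, 0.0175 before adjustment). Epop, which encodes a PRC2.1 subunit found in ESCs, had 410.0 and 288 CPM in WT and 280.2 and 231 CPM in Rest-/- ESCs, a log2 fold change of -0.45 (standard error 0.22, 95% interval -1.04 to 0.14). Its Rest-/- libraries lay below both WT libraries, the higher one by little. Kdm2b, whose protein brings a PRC1 variant to CpG islands, was the 1 gene above, at 112 and 114 CPM in WT and 151 and 131 CPM in Rest-/- ESCs, with a log2 fold change of 0.32 (standard error 0.14, 95% interval -0.055 to 0.69).

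Bmi1, a PRC1 core gene, had 13.3 and 4.74 CPM in WT and 7.12 and 3.25 CPM in Rest-/- ESCs. Like Suz12 and Aebp2 it was higher in replicate 1 of each genotype, the genotypes overlapped, and its log2 fold change was -0.80 (standard error 0.66). Kdm6a, an H3K27 demethylase gene on the X chromosome, had 187 and 102 CPM in WT and 126 and 72.2 CPM in Rest-/- ESCs. Its genotypes overlapped, with a log2 fold change of -0.55 (standard error 0.41, and -0.999 to -0.054 with 1 library left out). The median log2 fold change was -0.40 over 541 tested X-linked genes and 0.0045 over 13651 on other chromosomes, and the part of this in the value of Kdm6a was not tested.

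Of 33 developmental regulators that carry H3K27me3 in ESCs, 21 were tested and the other 12 were too low. In edgeR's quasi-likelihood test 0 passed and 5 of 21 had an unadjusted p under 0.05, against 6.71% of all tested genes, while edgeR's exact test called 4 with tag-wise dispersion, 2 higher, T and Gata6, and 2 lower, Olig2 among them, and 5 with common dispersion, and DESeq2 called 3, against 1.77%, 2.22% and 1.54% of all tested genes. The median log2 fold change was 0.092, with 12 genes above and 9 below 0. It was 0.42 without WT replicate 2, 0.33 without WT replicate 1 and 0.23 without Rest-/- replicate 2, where 23 genes were tested. Without Rest-/- replicate 1, where 21 were tested, the median was 0.086. T, a mesoderm factor, had 35 and 12 counts in WT and 386 and 118 counts in Rest-/- ESCs, a log2 fold change of 3.66 (standard error 0.76). Gata6, a primitive endoderm factor, had 28 and 13 counts in WT and 112 and 53 counts in Rest-/- ESCs, a log2 fold change of 2.26 (standard error 0.53). Both genes were higher in both Rest-/- libraries, and Gata6 is also among the primitive endoderm markers above. Olig2, an oligodendrocyte and motor neuron factor, had 158 and 172 counts in WT and 1 and 0 counts in Rest-/- ESCs. Per effective library size the summed WT count of Olig2 was 274 times the Rest-/- count, with an exact 95% interval of 48.9 to 10865 that covers counting error only.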

How the data were processed

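Total RNA of mouse ESCs was measured in 4 libraries, grouped by the genotype in the labels. The authors prepared TruSeq libraries, and the submitters' processing notes name mm9, Subread and featureCounts; the annotation, versions and use of strand are not given in the sources used here. The deposited table holds unnormalized read counts for each Entrez gene identifier, as whole numbers. Without known strand, Ezh2, Suz12, Rbbp4 and Mtf2 share 174 to 796 exonic bases with genes on the opposite strand, which cannot be told apart. The 368 rows with no identifier held no counts and were left out.

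Counts were compared with edgeR 4.0.16 (R 4.3.3): TMM, filterByExpr, quasi-likelihood test, genotype alone, prior count 0.125, Benjamini-Hochberg adjustment over 15444 genes. Tests were checked on simulated counts with planted log2 changes of 1 and 2, larger than the fitted change of any member, at the dispersion of the replicate block. Without a shift between replicate numbers, the model with genotype alone recovered 100% of them. With a shift taken from these libraries it recovered 0% and called 0 genes, so 0 calls in that model do not show that a difference was absent. The replicate block recovered 100% without and with the shift, and 4.31% and 7.83% of its calls were false. P-values rest on the spread between 2 libraries a genotype, with each gene's dispersion drawn toward, or at common dispersion set to, a value shared over genes. Standard errors and intervals of the log2 fold changes were derived from the quasi-likelihood F. Positions and lengths came from GENCODE M1 on NCBIM37 (mm9), where 21926 identifiers matched 1 gene, and promoter windows from RefSeq (GRCm38.p6), used for letters only. Copies were searched with BLAST+ 2.17.0 at 90% identity over 80% of the coding sequence. The members and all lists were chosen with earlier results of these data known. Named genes were all members, Rest, genes of the wider Polycomb list, and, of other lists, the 2 with the largest and the 2 with the smallest log2 fold change at 1 CPM or more; Pdgfra and the replication genes named, outside this rule, were chosen after their values were seen, and 2 genes that fall under the rule are not reported here. Alternatives were scaling by RLE, by the upper quartile or by library size, 2 further low-count filters, DESeq2 1.42.0, edgeR's exact test, a prior count of 2, the replicate block and each library left out; lengths and motif windows were also varied. ChIP and proteomic data were not analysed here.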

Additional observations from a re-analysis of the deposited data

How the results depend on the processing

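Scaling by RLE, by the upper quartile or by library size, 2 further filters, both exact tests, DESeq2, a prior count of 2 and each library left out in turn all called 0 of 10 PRC2 members. The replicate block called 4, all lower: Ezh1 (-0.32, adjusted p = 0.0241), Suz12 (-0.23, 0.0228), Aebp2 (-0.38, 0.0148) and Phf19 (-0.67, 0.00176) in edgeR's quasi-likelihood test. In that model 17.0% of all tested genes were called, and 5 genes of the wider Polycomb list, Epop, Kdm6a, Bmi1 and Scmh1 lower and Kdm2b higher; it also called Rest (-0.52, 0.00166, lower), 7 of 21 PRC2 targets, 4 replication genes (Cdt1, E2f1, Mcm5 and Rrm2, all lower), and 5 pluripotency (4 lower), 7 primitive endoderm (higher), 4 feeder (higher) and 2 neural progenitor markers (lower). No source states that equal numbers pair the libraries; the deviations of same-numbered libraries from their genotype means correlated at 0.77 across 15444 genes, which are not independent. Over all genes, the 9 calls became 53 without a filter, 3 with at least 10 counts in every library, 274 in the exact test at tag-wise and 343 at common dispersion, 238 in DESeq2 and 2621 (1308 higher, 1313 lower) with the replicate block, and 60 to 113 with 1 library left out. The common dispersion was 0.0754 with genotype alone and 0.00567 with the block; the cause of the other differences in count was not tested. Of the 10 members, 4 (Ezh1, Ezh2, Rbbp4 and Phf19) kept 1 direction in all 14 alternatives, with 1 library left out Phf19 from -0.85 to -0.49, Ezh1 from -0.47 to -0.18, Ezh2 from -0.13 to -0.017 and Rbbp4 from 0.091 to 0.13. With 1 library left out, Eed ran from -0.43 to 0.42, Suz12 from -0.72 to 0.27, Jarid2 from -0.11 to 0.14, Aebp2 from -0.86 to 0.19, Mtf2 from -0.62 to 0.51, Phf1 from -0.55 to 0.61 Bmi1 from -1.47 to 0.12 and Epop from -0.68 to -0.18, none of them called; the lone library of a genotype was then assumed to vary like the others. The median of the feeder fibroblast markers was 1.58, and ran from -0.44 (without Rest-/- replicate 1) to 2.33 with 1 library left out. The mean log2 ratio of Ezh1 to Ezh2 in WT became -2.68 with the longest transcript as length and -2.02 with the coding length of GENCODE M1, and the WT ratio of Ezh1 and Ezh2 to Suz12 became 1.67 with the longest transcript. The genotype difference in the PCL share ran from -7.53 to 3.74 percentage points, and that in the ratio to Suz12 from -0.21 to 0.37, with 1 library left out. The coding length and the 20 kb window for RE1, which gave 3 members with 1 mismatch, were chosen after seeing the data; the coding length planned from RefSeq proteins was not run. The lowest count of a member was 210; how depth limits single members was not tested.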

Other observations

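Some genes of the wider Polycomb list were also unequal between the libraries of 1 genotype, and their share was not tested against that of all genes. Of the 36 tested, 6 were at least 1.5 times higher in replicate 1 than in replicate 2 in both genotypes, where 9.86% of all tested genes were, among them Rnf2, the E3 ligase gene of PRC1, at 138 and 82.0 CPM in WT and 141 and 89.3 CPM in Rest-/- ESCs, and Setd2, the H3K36 trimethylase gene, at 238 and 145 CPM in WT and 224 and 145 CPM in Rest-/- ESCs. Nsd2 and Pcgf5 were higher in replicate 2 of both genotypes, Nsd2 at 88.7 and 135 CPM in WT and 92.5 and 128 CPM in Rest-/- ESCs, and Pcgf5 at 12.8 and 22.2 CPM and at 10.5 and 17.7 CPM. Pcgf5 was at least 1.5 times higher there in both genotypes, where 5.10% of all tested genes were. Nsd2 fell short of 1.5 times in Rest-/- ESCs. Phc1 (592 to 753 CPM) and Rbbp7 (428 to 483 CPM) had log2 fold changes of 0.093 and -0.097. The cause of the difference between libraries was not tested.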
